A study of Arabidopsis thaliana with 6 samples.

Results

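Transcript levels of light-grown seedlings of Arabidopsis thaliana were set against those of dark-grown (etiolated) seedlings. The comparison used 4 of the 6 arrays of the series, chosen by their titles: 2 arrays of seedlings kept under 16 h of light and 8 h of dark each day (light), and 2 arrays of seedlings kept in darkness (dark). The other 2 arrays were of dark-grown seedlings given 5 mM H2O2. All seedlings were of the accession Col-0 and were harvested whole at 7 days, with no mutation or transgene in any group, and the series describes the 2 arrays of a group as biological replicates. The submitters state that darkness was meant to keep the seedlings' own H2O2 low. The hour of harvest is not given in the sources used here.

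A seedling that germinates in darkness spends its seed reserves on a long hypocotyl, keeps its cotyledons closed and holds etioplasts, which lack the photosynthetic membranes of chloroplasts. Light, sensed by phytochromes and cryptochromes, lifts the repression of photomorphogenesis by the COP1 and COP9 signalosome system: cotyledons open, chloroplasts form, hypocotyl growth slows and the shoot starts to make leaves. A seedling in prolonged darkness has no photosynthetic sugar and turns to proteins and lipids as respiratory substrates.

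All values are log2 expression on 1-colour Affymetrix ATH1 arrays, so a difference of 1 is a 2-fold change. Differences are light minus dark with their standard error (SE, n = 2 arrays per group), and a difference counts as called where limma's p, adjusted by Benjamini and Hochberg, is under 0.05. Values of single arrays are listed as array 1 and then array 2 of a group. Of 22746 probe sets tested, 10920 (48.0%) were called, 5241 higher (23.0%) and 5679 lower (25.0%) in light. Over all genes 21.0% were called higher and 22.9% lower, with a median difference of -0.06. The counts of list members given below are to be read beside these shares. At 4-fold or more, 1067 probe sets (4.69%) were higher and 549 (2.41%) were lower, and at 16-fold or more 117 (0.514%) were higher and 44 (0.193%) lower. The 2 light arrays lay wholly above or below the 2 dark arrays in 16528 probe sets (72.7%). The array pairs correlated at r = 0.993 within light and at r = 0.993 within dark, against 0.898 to 0.901 between a light and a dark array. Centring the arrays on the spiked hybridisation controls adds 0.69 to every difference and turns the split into 4642 higher and 619 lower, while centring them on their own medians subtracts 0.11. The changes below are therefore relative to the bulk of transcripts on the array. With arrays centred on the hybridisation controls, 55 of the 205 called genes named below lost their call and 8 more turned sign. A group mean under 5.16 is called dim here, since 40% of the probe sets average less than that, and differences that involve a dim mean are uncertain in size. In whole seedlings, fewer cells of a type and less RNA per cell cannot be told apart.

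**Figure D1:**
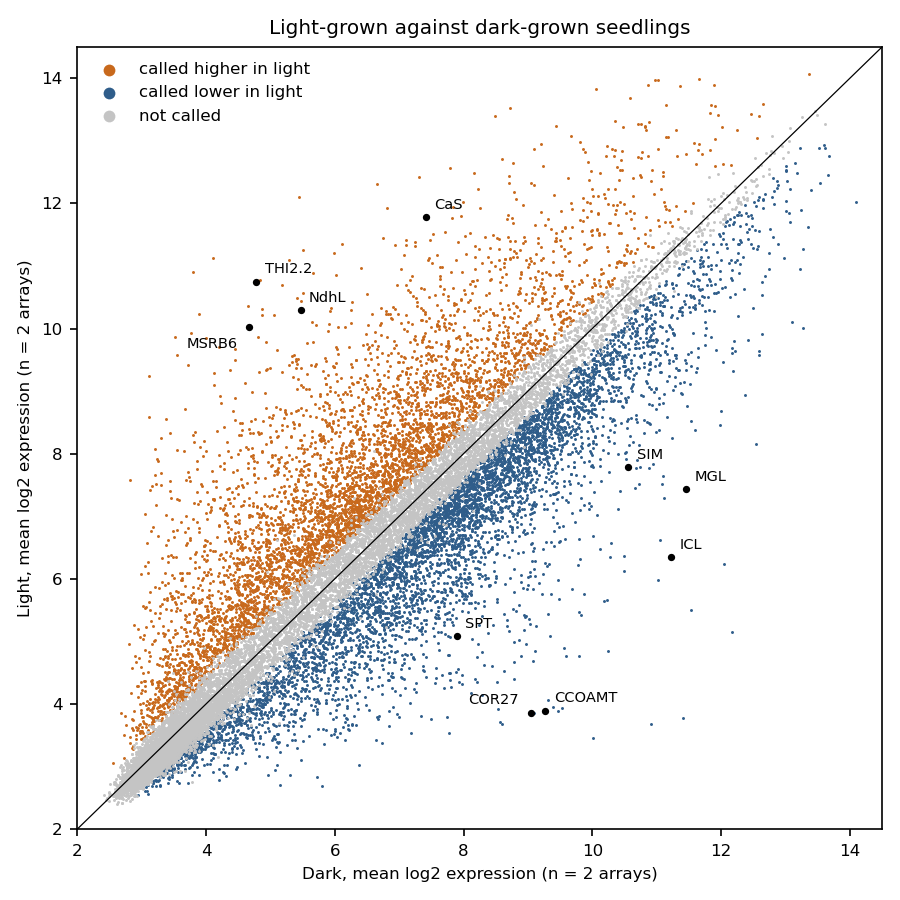
Mean log2 expression of each of 22746 probe sets in light (vertical axis, n = 2 arrays) against dark (horizontal axis, n = 2 arrays), with probe sets called higher in light, called lower in light and not called in separate colours, and some named genes labelled. The 117 probe sets called at least 16-fold higher and the 44 called at least 16-fold lower in light lie farthest from the diagonal line of equal levels.

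Among regulators of the light response, HYH, a bZIP transcription factor related to HY5, had 7.94 and 7.71 in light, against 5.11 and 4.94 in dark, which is dim (2.80 ± 0.15, adjusted p = 9.52e-07). AFR, an F-box protein of phytochrome A signalling, had 8.94 and 8.54 in light, against 6.53 and 6.57 in dark, a difference of 2.19 ± 0.16 (adjusted p = 5.01e-06). Both rises left a wide gap between the groups. SPT, a basic helix-loop-helix factor that restrains cotyledon and leaf growth, went the other way, with 5.17 and 5.00 in light and 7.94 and 7.85 in dark (-2.81 ± 0.13, adjusted p = 4.95e-07). Its light level is dim. FHL, which helps carry phytochrome A into the nucleus, fell by 1.33 ± 0.16 to a dim level, and CSN5B, a subunit of the COP9 signalosome, fell by 0.51 ± 0.13 (adjusted p = 0.0113), a change that turns to 0.18 with arrays centred on the hybridisation controls. CUL4, the scaffold of the ubiquitin ligases that work with COP1, rose by 0.59 ± 0.15. ALC, a relative of SPT, rose by 0.57 ± 0.19 from a dim dark level, and CSA1, an immune receptor tied to shade avoidance, by 0.52 ± 0.17. ALC and CSA1 lost their call in a fit of the 4 light and dark arrays alone (adjusted p = 0.0563 and 0.0586). They also lost it with arrays centred on their own medians (adjusted p = 0.0617 and 0.0853). SHB1 was dim in both groups and was not called (-0.27 ± 0.15). Of these 9 measured genes 5 rose and 3 fell.

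Of 6 measured clock genes, COR27, a small nuclear protein of clock and seedling light control, stood apart. It had 3.57 and 4.15 in light, which is dim, and 9.02 and 9.05 in dark, a difference of -5.18 ± 0.20 (adjusted p = 2.2e-07). LIP1, a small GTPase that affects the period, fell by 0.72 ± 0.15 (adjusted p = 0.00292). With arrays centred on the hybridisation controls the difference of LIP1 becomes -0.03. XCT and TIC rose by 0.45 ± 0.12 and 0.36 ± 0.13. The call of TIC was lost with the replicate block (adjusted p = 0.0557) and with each single array left out (adjusted p = 0.0833 to 0.137). GI, a core clock component, had 7.76 and 8.03 in light and 7.68 and 7.96 in dark, and the arrays overlapped. FIO1 was not called either, at 0.10 ± 0.18. Clock transcripts change over the day, and the hour of harvest is not known here.

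Nuclear genes for the assembly and the electron flow of the thylakoid membrane were higher in light almost without exception. Of 24 measured, 23 rose, 19 of them at least 2-fold, and none fell, with a median difference of 1.92. Over all genes 21.0% rose and 22.9% fell. NdhL, a subunit of the chloroplast NADH dehydrogenase-like (NDH) complex of cyclic electron flow, had 10.29 and 10.30 in light, against 5.49 and 5.45 in dark (4.82 ± 0.12, adjusted p = 6.28e-08). NdhN, another subunit, had 10.28 and 9.86 in light and 5.85 and 5.96 in dark (4.16 ± 0.18). The groups lay far apart for both genes, and the light arrays lay closer together for NdhL than for NdhN. CaS, a thylakoid calcium-sensing protein, had 11.76 and 11.79 in light and 7.53 and 7.30 in dark (4.36 ± 0.23, adjusted p = 9.04e-07). TROL, which anchors ferredoxin-NADP reductase to the membrane, rose by 3.24 ± 0.15.

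Assembly factors rose along with the complexes. HCF101, which delivers iron-sulfur clusters to photosystem I, rose by 3.18 ± 0.14, and PAM68, LPA1, LPA2, LPA19 and PSB27, which act in the building or repair of photosystem II, rose by 2.46, 1.70, 1.79, 1.33 and 1.66. CCB3, which attaches a heme to cytochrome b6, rose by 2.34 ± 0.20 from a dim dark level. PGRL1B of cyclic electron flow had 9.19 and 8.88 in light and 6.80 and 6.76 in dark. The 2 genes for LIL3, a light-harvesting-like protein of chlorophyll synthesis, moved unequally: LIL3:1 rose by 2.97 ± 0.18 and LIL3:2 by 0.85 ± 0.14. The exception was TAAC, an ATP/ADP carrier of the thylakoid, which had 6.96 and 6.92 in light and 6.86 and 6.86 in dark (0.08 ± 0.14, adjusted p = 0.702).

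Of 9 nuclear-encoded subunits of the photosystems, antenna and ATP synthase 8 rose and 1 fell. PSAN of photosystem I had 13.31 and 13.13 in light, against 10.48 and 10.46 in dark, and PSBY of photosystem II had 13.29 and 13.24 in light, against 10.78 and 10.74 in dark. The genes for the antenna protein CP29 rose by 1.22 ± 0.14 (LHCB4.1), 1.92 ± 0.14 (LHCB4.2) and 1.79 ± 0.15 (LHCB4.3). The paralogous genes for the gamma subunit of the chloroplast ATP synthase went in opposite directions. ATPC1 had 12.76 and 12.75 in light and 10.77 and 10.95 in dark (1.89 ± 0.13), while ATPC2 had 5.95 and 6.24 in light and 6.85 and 6.68 in dark (-0.67 ± 0.15, adjusted p = 0.00469, a sign that turns, to 0.02, with arrays centred on the hybridisation controls). HPR, the peroxisomal hydroxypyruvate reductase of photorespiration, rose by 2.34 ± 0.15, with 13.29 and 13.05 in light and 10.90 and 10.76 in dark.

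Genes of tetrapyrrole and carotenoid synthesis rose in 10 of 14 cases and fell in none. CHLI2, a subunit of the magnesium chelatase that opens the chlorophyll branch, had 9.60 and 9.61 in light and 6.45 and 6.64 in dark (3.06 ± 0.15). HEME1 and HEME2, uroporphyrinogen decarboxylases upstream of the branch point, rose by 1.99 ± 0.13 and 2.23 ± 0.13. NOL, a chlorophyll b reductase, rose by 1.75 ± 0.13. Smaller rises were found for CHLM, the next chlorophyll enzyme, at 1.20 ± 0.13, and for the carotenoid enzymes LYC (lycopene cyclase, 1.14 ± 0.14) and Z-ISO (a carotene isomerase, 0.74 ± 0.14). PORB, a protochlorophyllide oxidoreductase of the light-requiring step, had 9.16 and 9.74 in light and 9.80 and 9.49 in dark and was not called (adjusted p = 0.49).

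Thioredoxins and enzymes of ascorbate and glutathione redox chemistry rose in 15 of 21 cases and fell in 3. TRXF2, an f-type thioredoxin that activates Calvin cycle enzymes in light, had 10.72 and 10.39 in light and 6.67 and 6.32 in dark (4.06 ± 0.20). NTRC, a plastid NADPH thioredoxin reductase, rose by 3.18 ± 0.13. The y-type thioredoxins moved in opposite directions: ty2 had 10.39 and 10.30 in light against 8.13 and 8.34 in dark, whereas TY1 had 6.85 and 6.46 in light against 8.11 and 8.02 in dark. Methionine sulfoxide reductases, which repair oxidised methionine, split as well. MSRB6 had 10.19 and 9.87 in light and 4.68 and 4.67 in dark, which is dim (5.36 ± 0.23, adjusted p = 3.23e-07), while MSRB3 and MSRB9 fell by 1.03 ± 0.18 and 1.15 ± 0.13. TAPX, the thylakoid ascorbate peroxidase, rose by 3.25 ± 0.16 and VTC4, of ascorbate synthesis, by 2.40 ± 0.14, against 0.54 ± 0.14 for SAPX, the stromal peroxidase.

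Nuclear factors for organelle RNA editing and NDH assembly, named CRR and OTP, were mixed, with 6 of 13 higher and 1 lower. CRR21 had 7.46 and 7.53 in light and 4.38 and 4.74 in dark, CRR42 had 8.14 and 8.09 in light and 5.39 and 5.10 in dark, and CRR41 had 6.23 and 6.32 in light and 3.80 and 3.85 in dark. These are the gains of 2.93, 2.87 and 2.45, each with an SE of 0.15 or less, and CRR21 and CRR41 were dim in dark. All 8 OTP genes measured were dim in both groups, so the size of any change in them is uncertain. OTP81 fell by 0.74 ± 0.14, OTP84 rose by 0.83 ± 0.15 and the other 6 were not called.

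**Figure D2:**
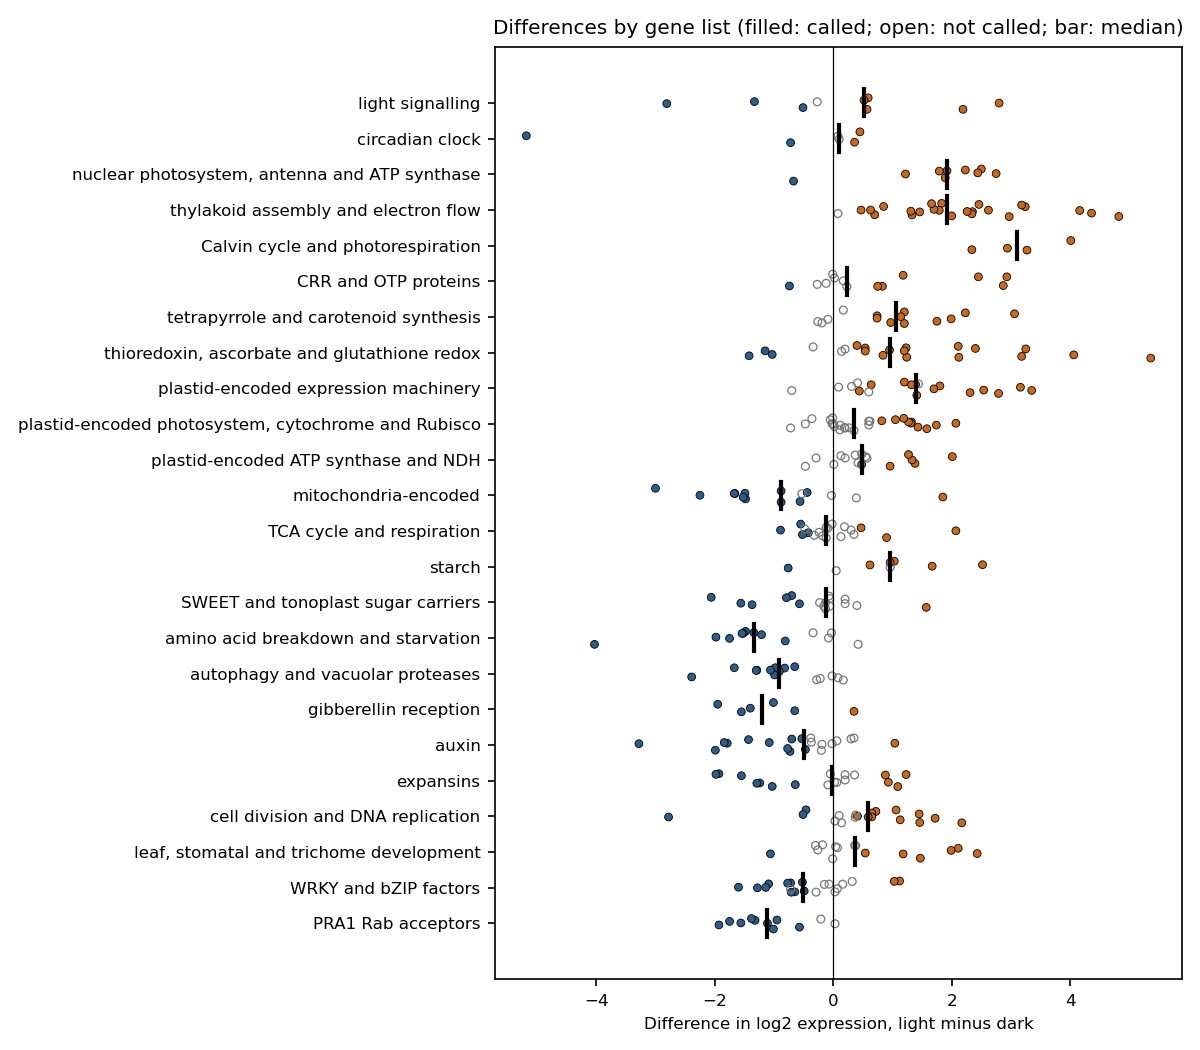
Difference in log2 expression, light minus dark, of each measured gene (points) in 24 of the gene lists, ordered by role, with the median of each list as a bar and the vertical line at 0. Filled points were called and open points were not. Thylakoid assembly and Calvin cycle genes lie to the right of 0. Genes of amino acid breakdown and starvation, autophagy and gibberellin reception lie mostly to the left.

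Of 69 transcripts encoded by the plastid genome, 31 were called higher in light and none lower, with a median difference of 0.60. The genes of plastid gene expression (ribosomal proteins and RNA polymerase) led: 13 of 19 rose. The rpl36 transcript had 10.73 and 10.85 in light and 8.15 and 7.10 in dark (3.16 ± 0.30), and rps3 had 11.56 and 11.76 in light and 9.43 and 8.80 in dark (2.54 ± 0.20). The largest difference was that of rpl22, with 11.14 and 10.83 in light and 8.65 and 6.62 in dark. The rpl16 transcript had 10.19 and 10.55 in light and 8.34 and 6.83 in dark. In these 4 genes dark array 1 lay above dark array 2, and both lay below the light arrays.

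Of the plastid-encoded photosystem, cytochrome b6f and Rubisco genes 10 of 27 rose. The rises included psbC, a core antenna protein of photosystem II, with 10.01 and 10.56 in light and 8.20 and 8.24 in dark, and psbE of cytochrome b559, with 11.99 and 11.98 in light and 10.11 and 10.38 in dark. The rbcL transcript, for the large subunit of Rubisco, had 10.24 and 11.06 in light and 9.71 and 9.48 in dark (1.05 ± 0.24, adjusted p = 0.00535). Of the ATP synthase and NDH genes 6 of 16 rose, among them atpA with 11.18 and 11.70 in light and 8.97 and 9.90 in dark, and atpB with 12.78 and 13.15 in light and 11.41 and 11.74 in dark.

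The plastid transcripts that were not called include some whose replicates lay far apart. The petD transcript, of cytochrome b6f, had 5.63 and 7.26 in light, against 8.51 and 4.41 in dark. The ndhF transcript had 5.58 and 6.29 in light, against 8.51 and 3.94 in dark, and petN had 7.41 and 9.03 in light, against 10.13 and 6.06 in dark. In each case dark array 1 was above both light arrays and dark array 2 below both. The same held for psaC only on the side of dark array 1, with 5.99 and 7.26 in light and 8.49 and 6.19 in dark. The dark arrays differed by more than 1 in 28 of the 69 plastid genes (40.6%), with dark array 1 the higher in 26 of them, against 78 of 13356 genes in all (0.584%). The light arrays differed by more than 1 in 11 plastid genes, always with light array 2 the higher, and the H2O2 arrays in none. Without dark array 2, 30 plastid genes were called higher and 11 lower, and without dark array 1, 42 were called higher and none lower. What set the dark arrays apart was not tested.

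**Figure D3:**
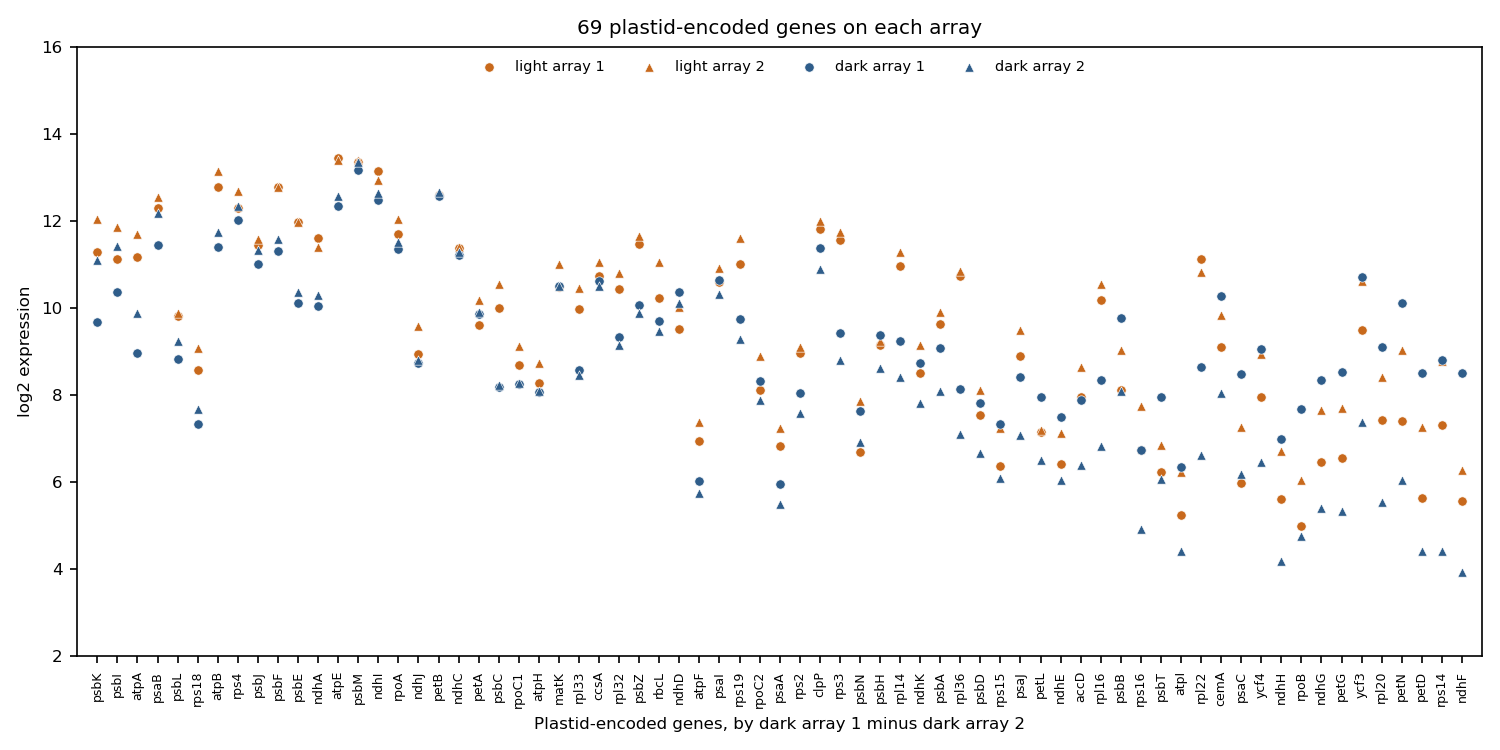
Log2 expression of the 69 plastid-encoded genes on each light array and each dark array, with genes ordered from left to right by the difference between the dark arrays (dark array 1 minus dark array 2). At the right end, dark array 1 lies above both light arrays and dark array 2 below them in genes such as petD, ndhF and petN.

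Transcripts named for the mitochondrial genome were mostly lower in light, in a set put together after the values had been seen. Of 15 measured, 11 fell and 1 rose, with a median difference of -0.88 (-0.19 with arrays centred on the hybridisation controls, where 2 falls remained called). The nad5 transcript, for a subunit of complex I, had 4.56 and 4.99 in light, which is dim, and 7.71 and 7.84 in dark (adjusted p = 2.8e-06). The cox1 transcript, of cytochrome c oxidase, had 6.48 and 6.95 in light and 8.71 and 9.21 in dark, and cox2 had 5.90 and 5.47 in light and 7.34 and 7.35 in dark. The groups did not overlap for any of these. The exception, ccb382, of cytochrome c maturation, had 8.69 and 8.82 in light and 6.86 and 6.96 in dark. The nuclear genome of Arabidopsis holds copies of mitochondrial sequence, and the arrays may not tell these apart from the mitochondrial transcripts.

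Of 19 nuclear genes of the citric acid cycle and respiration 3 rose and 4 fell, where 21.0% of all genes rose and 22.9% fell. The median difference was -0.12, which turns to 0.57 with arrays centred on the hybridisation controls. SDH1-1, the flavoprotein subunit of succinate dehydrogenase, changed most, with 9.35 and 9.48 in light and 7.43 and 7.26 in dark (2.07 ± 0.14). CYTC-2, a cytochrome c gene, rose by 0.90 ± 0.14, while CYTC-1 was not called at -0.24. NDB2, an alternative NADH dehydrogenase of the inner membrane, fell by 0.89 ± 0.18.

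Starch genes were higher in light where they changed at least 2-fold. SBE2.2, a starch branching enzyme, had 9.94 and 9.91 in light and 7.30 and 7.50 in dark (2.52 ± 0.14), and DPE1, a plastid glucanotransferase of starch turnover, had 6.96 and 7.31 in light and 5.39 and 5.55 in dark (1.67 ± 0.15). QQS, a regulator of carbon allocation to starch, rose by 1.03 ± 0.18 between dim levels, and APL4, a subunit of ADP-glucose pyrophosphorylase, by 0.62 ± 0.17, also dim. Both loci annotated PWD, for a water dikinase that phosphorylates starch, were measured: AT4G24450 rose by 0.96 ± 0.19 from a dim dark level, and AT5G26570 was not called (0.05 ± 0.15). AMY1, a secreted alpha-amylase, fell by 0.76 ± 0.13 to a dim level, and APL3, dim in both groups, was not called (0.96 ± 0.37, adjusted p = 0.0589).

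Sugar carriers were lower in light in 6 of 17 cases and higher in 1, with a median of -0.13 that turns to 0.56 with arrays centred on the hybridisation controls. SWEET11, a sucrose exporter of the phloem, had 10.76 and 10.53 in light and 11.90 and 12.12 in dark (-1.37 ± 0.15). TMT1, a sugar importer of the vacuole, had 8.28 and 8.43 in light and 9.81 and 10.01 in dark (-1.56 ± 0.14), and SWEET3 fell by 2.06 ± 0.16. The rise was that of SWEET1, a glucose carrier, with 8.22 and 7.68 in light and 6.48 and 6.28 in dark. The remaining 10 carriers were not called, and their differences lay between -0.23 and 0.40.

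Genes of seed oil use and acetyl-CoA supply were divided, with 3 of 9 higher and 3 lower. ICL, isocitrate lyase of the glyoxylate cycle that turns seed oil into sugar, had 6.90 and 5.79 in light and 11.81 and 10.63 in dark (-4.87 ± 0.42, adjusted p = 1.44e-05). The oil lipase gene SDP1 had 7.93 and 8.14 in light and 9.05 and 8.92 in dark (-0.95 ± 0.14). The genes ACLA-1 and ACLA-3, for the same subunit of ATP citrate lyase, moved apart, the first higher by 0.66 ± 0.14 and the second lower by 0.80 ± 0.17. AIM1, a beta-oxidation enzyme, and ACS, acetyl-CoA synthetase, rose by 0.65 and 0.47.

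Genes of amino acid breakdown and starvation fell in 9 of 13 cases and rose in none, with a median difference of -1.34. MGL, methionine gamma-lyase, had 7.33 and 7.52 in light and 11.54 and 11.39 in dark (-4.03 ± 0.14, adjusted p = 1.52e-07). IVD, isovaleryl-CoA dehydrogenase of leucine breakdown, had 8.27 and 8.43 in light and 10.45 and 10.20 in dark, and MCCA, of the next step, had 8.71 and 9.40 in light and 10.78 and 10.41 in dark. AKINBETA1, a subunit of the SnRK1 energy sensor kinase, fell by 1.75 ± 0.16. Not called were ETFALPHA (-0.08), ETFBETA (-0.34), D2HGDH (0.42) and FDH, formate dehydrogenase (-0.03). The ETF proteins carry electrons away from IVD, and ETFQO, which takes them over, fell by 0.81.

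Autophagy genes and vacuolar proteases fell in 10 of 15 cases and rose in none, with a median of -0.91. The ATG8 family, whose products coat the autophagosome, ranged widely. ATG8B had 7.34 and 7.12 in light and 9.70 and 9.54 in dark (-2.39 ± 0.14), and ATG8D had 7.36 and 7.07 in light and 8.93 and 8.85 in dark (-1.67 ± 0.15). APG8A fell by 1.30 ± 0.16, but ATG8F (-0.22) and ATG8H (0.17) were not called. GAMMA-VPE, the vacuolar processing enzyme of vegetative tissue, fell by 0.91 ± 0.18, and the seed-type BETA-VPE (-0.02) and DELTA-VPE (0.08) were not called. With the hybridisation controls as the basis for scaling, the list median was -0.22 for autophagy and -0.65 for amino acid breakdown and starvation.

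Of 8 seed proteins measured, 6 were dim in both groups and 3 fell. OLEO3, an oil body protein, had 4.35 and 4.50 in light, which is dim, and 6.89 and 7.15 in dark (-2.60 ± 0.14). M10 and AtLEA4-1 fell by 2.33 ± 0.22 and 1.13 ± 0.33. The storage protein gene PAP85 was dim, with 3.68 and 4.10 in light and 3.65 and 3.43 in dark, and it was not called, nor were M17, LEA, LEA4-5 and LEA18.

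**Figure D4:**
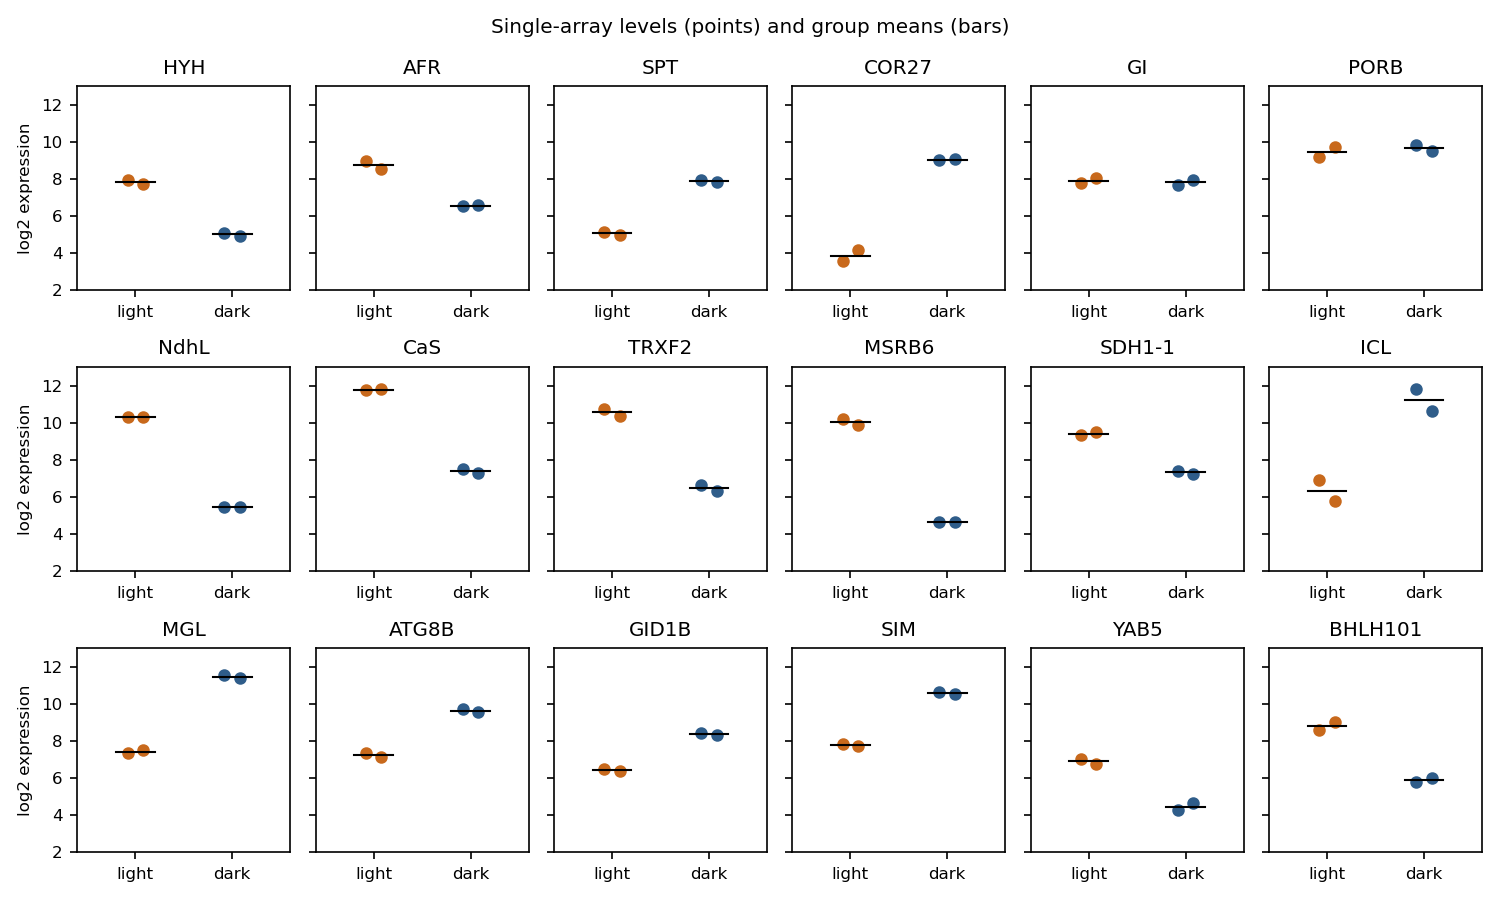
Log2 expression of 18 named genes on each light array (left of each pair) and each dark array (right of each pair), with short bars at the group means (n = 2 arrays). In every panel the 2 light arrays lie on one side of the 2 dark arrays, except for GI and PORB, whose arrays overlap.

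All 3 gibberellin receptors were lower in light. GID1B had 6.48 and 6.37 in light and 8.41 and 8.34 in dark (-1.95 ± 0.13, adjusted p = 2.78e-06). GID1A had 7.32 and 7.12 in light and 8.81 and 8.72 in dark, and GID1C had 5.80 and 5.58 in light and 7.33 and 6.87 in dark. Their array pairs did not overlap. With arrays centred on the hybridisation controls GID1B remained called, but GID1A (-0.86, adjusted p = 0.213) and GID1C (-0.72, adjusted p = 0.302) did not, and the median of the 6 genes of gibberellin reception was -0.52 against -1.21. SLY1, the F-box protein that removes the DELLA growth repressors, fell by 0.65 ± 0.13, a difference that becomes 0.04 with arrays centred on the hybridisation controls. The sugar transferases SPY and SEC, which modify DELLA proteins, differed: SPY had 7.53 and 7.56 in light and 8.55 and 8.56 in dark, while SEC had 8.12 and 8.12 in light and 7.78 and 7.76 in dark. The fall of SPY (-1.01 ± 0.12) became -0.32 (adjusted p = 0.615) with arrays centred on the hybridisation controls. The rise of SEC (0.35 ± 0.13, adjusted p = 0.0444) lost its call with the replicate block (adjusted p = 0.0579) and with each single array left out (adjusted p = 0.108 to 0.134).

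Auxin genes fell in 11 of 20 cases and rose in 1, with a median of -0.50 that turns to 0.19 with arrays centred on the hybridisation controls. IAA20, a member of the Aux/IAA repressor family, had 4.51 and 4.48 in light, which is dim, and 8.01 and 7.53 in dark (-3.28 ± 0.22). GH3.3, which joins auxin to amino acids, had 6.12 and 6.24 in light and 8.26 and 8.09 in dark. The groups lay apart too for WES1, an enzyme of the same family, with 8.66 and 9.23 in light and 10.29 and 10.46 in dark. WAG2, a kinase that acts on auxin transport and apical hook opening, fell by 1.79 ± 0.23 to a dim level. Of the auxin synthesis genes, YUC11 fell by 0.47 ± 0.15 (adjusted p = 0.0271, a difference of 0.22 with arrays centred on the hybridisation controls), while YUC2 (0.06), YUC4 (-0.02) and YUC6 (-0.20) were not called. YUC4, YUC6 and YUC11 were dim in both groups. The single rise, of GH3.9 by 1.04 ± 0.18, was between dim levels.

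Of 11 genes of brassinosteroid, ethylene and cytokinin action, 6 fell and 1 rose. EIN3, the main transcription factor of ethylene signalling, had 9.33 and 9.41 in light and 10.21 and 10.37 in dark (-0.92 ± 0.13, adjusted p = 0.000322). UGT76C2, which inactivates cytokinins, fell by 1.34 ± 0.14, BAT1, an acyltransferase that inactivates brassinosteroids, by 1.16 ± 0.17, and BRL1, a brassinosteroid receptor, by 1.24 ± 0.15 to a dim level. BIM1, a brassinosteroid-responsive transcription factor, rose by 0.46 ± 0.15. The list median of -0.41 turns to 0.28 with arrays centred on the hybridisation controls, as do those of other lists with a median between 0 and -0.69. Under that scaling EIN3 (-0.23), UGT76C2 (-0.65), BAT1 (-0.47), BRL1 (-0.55) and BIM1 (1.15) lost their call.

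The counts in the cell wall families stand beside 21.0% of all genes higher and 22.9% lower. Of 18 expansins, which loosen walls in growing cells, 7 fell and 4 rose, with a median of -0.02. EXPA20 had 5.81 and 5.59 in light and 7.72 and 7.65 in dark (-1.98 ± 0.15), and EXPA9 had 7.16 and 7.11 in light and 9.11 and 9.01 in dark (-1.93 ± 0.15). EXPB3 went up, with 9.00 and 8.60 in light and 7.48 and 7.65 in dark. Among 24 xyloglucan hydrolases (XTH) and GH9 glucanases 6 fell and 4 rose, and 12 were dim in both groups. XTH33 had 4.43 and 4.41 in light and 6.90 and 7.19 in dark (-2.63 ± 0.14), GH9B13 had 7.18 and 7.13 in light and 8.85 and 9.35 in dark, and XTH26 had 5.89 and 5.25 in light and 3.32 and 3.24 in dark. XTH33 was dim in light and XTH26 in dark. Of 33 cellulose synthase-like genes and TBL genes of wall acetylation, 8 rose and 8 fell, and 10 were dim in both groups. The largest changes were the rise of TBL45, by 1.95 ± 0.14, and the fall of CSLD2, by 1.51 ± 0.14.

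Genes of cell division and DNA replication rose in 11 of 19 cases and fell in 3, with a median of 0.59. The chromosome protein gene 3xHMG-box2 had 8.44 and 8.59 in light and 6.13 and 6.55 in dark (2.17 ± 0.17), TOPII, a DNA topoisomerase, had 7.15 and 7.63 in light and 5.95 and 5.93 in dark, and BUB3.1, of the spindle checkpoint, had 7.79 and 7.91 in light and 6.39 and 6.38 in dark. POLD3, a subunit of DNA polymerase delta, had 5.73 and 5.09 in light and 3.86 and 3.52 in dark, which is dim. SIM went the opposite way, with 7.82 and 7.73 in light and 10.61 and 10.51 in dark (-2.78 ± 0.13, adjusted p = 4.61e-07). SIM encodes SIAMESE, a cyclin-dependent kinase inhibitor that halts mitosis in endoreduplicating cells. Of 7 histone genes, HTB2 rose by 0.40 and HTB1 (-0.04), HTB4 (0.07), HTB11 (0.02), HTR12 (0.04) and HON4 (0.35) were not called. The linker histone HIS1-3 fell, with 6.91 and 6.63 in light and 8.67 and 8.32 in dark.

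Of 14 genes of tubulin, actin and microtubule partners 4 rose and 3 fell, where 21.0% of all genes rose and 22.9% fell. TUB9 had 8.97 and 8.66 in light and 9.87 and 9.82 in dark, and TUA1 had 8.14 and 7.99 in light and 9.09 and 9.00 in dark. SP1L4, of the SPIRAL1 family that steers cortical microtubules, rose by 1.51 ± 0.18, and SPR1 itself fell by 0.46 ± 0.14, which becomes 0.23 with arrays centred on the hybridisation controls. The actin genes ACT11 (-0.12) and ACT12 (-0.08) were not called.

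Regulators of leaf, stomatal and trichome development rose in 6 of 15 cases and fell in 1. YAB5, a YABBY factor of the lower leaf side, had 7.05 and 6.75 in light and 4.28 and 4.66 in dark (2.43 ± 0.17). TRY, which spaces trichomes, had 5.68 and 5.58 in light and 3.53 and 3.52 in dark. Of the stomatal lineage, SPCH, which starts it, had 5.84 and 4.93 in light and 4.16 and 3.68 in dark (1.47 ± 0.29, adjusted p = 0.00221), and FMA, the guard cell factor FAMA, had 5.66 and 5.41 in light and 3.34 and 3.76 in dark (1.99 ± 0.19). MUTE, which acts between them, was not called (0.36), and STOMAGEN, a secreted peptide of the mesophyll that promotes stomata, had 8.42 and 8.94 in light and 7.59 and 7.41 in dark. YAB5, TRY, SPCH and FMA were dim in dark. TCP15, a growth regulator, fell by 1.06 ± 0.13. Of 3 root markers, PYK10, a glucosidase of root ER bodies, was not called, with 12.97 and 12.85 in light and 12.88 and 13.01 in dark, and the root hair expansins EXPA7 and EXPA18 rose by 1.09 ± 0.19 and 0.88 ± 0.24.

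Glucosinolate and sulfur genes rose in 6 of 12 cases and fell in 4. BCAT4, which starts methionine chain elongation for glucosinolates, rose by 3.66 ± 0.30, UGT74B1, a glucosyltransferase of glucosinolate synthesis, by 1.63 ± 0.14, and GTR1, a glucosinolate transporter, by 1.72 ± 0.24, while GTR2 had 7.97 and 7.89 in light and 8.60 and 8.63 in dark, a fall that turns to 0.01 with arrays centred on the hybridisation controls. The ATP sulfurylases, which activate sulfate, changed in opposite directions. APS3 had 7.81 and 7.94 in light and 6.19 and 6.35 in dark (1.61 ± 0.15), and APS4 had 9.28 and 9.33 in light and 11.05 and 11.09 in dark (-1.76 ± 0.12). STR18, a sulfurtransferase, fell by 2.14 ± 0.22.

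Phenylpropanoid genes were as divided. UGT78D1, which puts rhamnose on flavonols, had 7.84 and 6.94 in light and 4.18 and 4.63 in dark, which is dim. UGT78D2, which puts glucose on them, had 8.71 and 8.26 in light and 6.02 and 5.80 in dark, and CHIL, a chalcone isomerase-like protein, rose by 2.63. DFR, of the anthocyanin branch, was not called (0.31), nor was BAN (0.03), and both were dim in both groups. CCOAMT, a caffeoyl-CoA methyltransferase gene, had 3.80 and 3.98 in light, which is dim, and 9.40 and 9.13 in dark (-5.38 ± 0.18, adjusted p = 1.46e-07). HCT, of lignin monomer synthesis, fell by 0.59 ± 0.13, which turns to 0.09 with arrays centred on the hybridisation controls. Of the 13 measured, 4 rose and 3 fell, where 21.0% of all genes rose and 22.9% fell.

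Of 47 UDP-glycosyltransferases, 12 rose and 15 fell, with a median of -0.05, where 21.0% of all genes rose and 22.9% fell. UGT76B1, which glucosylates isoleucic acid and salicylic acid, had 6.53 and 6.42 in light and 9.36 and 9.09 in dark (-2.75 ± 0.14), and UGT76E11 had 5.76 and 5.77 in light and 3.62 and 3.60 in dark, which is dim. Of 19 CYP71B cytochromes P450, 9 rose and 3 fell. CYP71B26 had 9.26 and 9.19 in light and 5.14 and 5.56 in dark (3.87 ± 0.18), and CYP71B6 had 8.31 and 8.10 in light and 10.08 and 9.93 in dark. Beta-glucosidases rose in 5 of 20 cases and fell in 1. BGLU33 rose by 3.58 ± 0.15 from a dim dark level, and BGLU40 and BGLU44 by 2.52 ± 0.22 and 2.35 ± 0.18.

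Among glutathione S-transferases, detoxifying enzymes, 7 of 14 rose and 5 fell. GSTL3 had 11.05 and 10.76 in light and 8.09 and 7.87 in dark (2.92 ± 0.15). Neighbouring members of the tau class lay at opposite ends, as GSTU20 had 11.44 and 11.48 in light and 8.26 and 8.39 in dark, and GSTU22 had 7.32 and 6.92 in light and 10.38 and 10.42 in dark. Defence peptides were as far apart. The thionin THI2.2 had 10.65 and 10.86 in light and 4.70 and 4.87 in dark, which is dim, while its paralog THI2.1 was not called (0.13). The defensin PDF1.4 had 5.83 and 6.07 in light and 8.22 and 8.78 in dark (-2.54 ± 0.32), and OSM34, an osmotin, had 10.27 and 10.39 in light and 12.55 and 12.45 in dark (-2.17 ± 0.13).

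Chaperones rose in 7 of 15 cases and fell in 1. Cpn60beta4 and Cpn60beta2, subunits of the plastid chaperonin, rose by 3.25 ± 0.15 and 2.31 ± 0.22, with Cpn60beta4 dim in dark, while Cpn60beta3 was not called (0.36). Hop2, a co-chaperone, had 8.37 and 8.51 in light and 7.19 and 6.97 in dark. Hsp70-2 fell by 1.34 ± 0.14.

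Iron regulators of the bHLH family showed 1 large change. BHLH101, which is induced when iron is short, had 8.57 and 9.00 in light and 5.79 and 6.03 in dark (2.87 ± 0.17, adjusted p = 1.59e-06). Other members moved by less, with bHLH34 higher by 1.11 ± 0.15 and dim in dark, bHLH104 lower by 0.81 ± 0.13 and ILR3 lower by 0.46 ± 0.13, which becomes 0.23 with arrays centred on the hybridisation controls. PYE (0.34), bHLH115 (0.42) and bHLH121 (0.31) were not called.

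Of 20 WRKY and bZIP transcription factors 10 fell and 2 rose, with a median of -0.51 that turns to 0.18 with arrays centred on the hybridisation controls. BZIP60, of the unfolded protein response, had 7.71 and 7.94 in light and 9.35 and 9.50 in dark (-1.60 ± 0.15), and BZIP53 had 9.52 and 10.12 in light and 10.76 and 11.06 in dark. Of 16 calmodulin-like and U-box genes 7 fell and 2 rose. The ubiquitin ligase PUB22, which dampens immune responses, had 6.62 and 6.77 in light and 8.45 and 8.62 in dark. PUB24, of the same group, had 4.37 and 4.12 in light and 6.45 and 6.71 in dark, and CML43 had 5.60 and 5.36 in light and 8.06 and 7.89 in dark. PUB24 was dim in light, and PUB23 was not called (-0.09). Of 11 cold and dehydration genes, LTI30, COR47, HVA22C and COR15A rose, the first by 1.72 ± 0.15, while COR15A was dim in both groups. XERICO, RD2 and DI19 fell, by 1.80 ± 0.13, 1.70 ± 0.13 and 0.73 ± 0.14. With arrays centred on the hybridisation controls these falls became -1.11, -1.01 and -0.04 and lost their call. The list median of -0.09 turns to 0.6 there.

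Families of membrane traffic and of the cell surface were looked at after the values of all genes had been seen. Of 11 PRA1 proteins, which act with Rab GTPases in vesicle transport, 9 fell and none rose. PRA8 had 9.50 and 9.24 in light and 11.47 and 11.12 in dark (-1.93 ± 0.16), and PRA1.A1 had 7.26 and 7.27 in light and 8.69 and 8.59 in dark. Their median of -1.11 stayed negative, at -0.42, with arrays centred on the hybridisation controls. Of 15 tetraspanins 7 fell and 1 rose, with a median of -0.27 that turns to 0.42 under that scaling. TET8 had 9.10 and 9.52 in light and 11.07 and 11.03 in dark, and TET5 had 5.88 and 6.19 in light and 7.89 and 7.87 in dark. Both lost their call with arrays centred on the hybridisation controls (TET8 -1.05, adjusted p = 0.109, and TET5 -1.16, adjusted p = 0.0708).

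Of 15 IQD calmodulin-binding proteins 7 rose and 3 fell, where 21.0% of all genes rose and 22.9% fell. IQD24 had 7.15 and 7.05 in light and 4.07 and 4.08 in dark, and iqd21 had 7.89 and 8.01 in light and 5.11 and 4.95 in dark, both dim in dark. IQD22 had 5.79 and 5.81 in light and 7.87 and 8.07 in dark (-2.17 ± 0.14). Of 10 NET actin-binding proteins 5 rose and 1 fell, 6 of the 10 being dim in both groups, with NET1B at 1.40 ± 0.22, dim in dark, and NET4B at 1.25 ± 0.16. Of 29 serine carboxypeptidase-like genes 5 rose and 7 fell. The ends of that range were scpl42 at 2.02 ± 0.13 and scpl40, dim in light, at -1.93 ± 0.20.

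Ordered by size alone, many of the strongest changes belong to loci with no gene name in the tables used. In places 11 to 20 of the rises stand AT3G56290, with 9.76 and 9.65 in light and 4.16 and 4.25 in dark, which is dim, and AT5G48490, with 11.84 and 12.01 in light and 6.69 and 6.93 in dark. In places 11 to 20 of the falls stand ATPMEPCRD, a pectin methylesterase family gene, with 5.75 and 5.58 in light and 10.24 and 10.22 in dark (-4.57 ± 0.13), and AT3G18250, with 4.98 and 4.81 in light, which is dim, and 9.55 and 9.55 in dark. In 457 genes a dim level in dark stood against a level at least 2-fold higher and no longer dim in light, and in 299 genes the reverse held.

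The dark-grown seedlings given H2O2 were set beside both groups. Light against H2O2 called 8981 of 22746 probe sets (39.5%) and H2O2 against dark called 4656 (20.5%). These comparisons share arrays with each other and with light against dark. The genes below were picked after their values had been seen. SDH1-1 had 9.35 and 9.48 in light, 9.23 and 9.00 with H2O2 and 7.43 and 7.26 in dark. BGLU42 had 7.00 and 6.76 in light, 7.00 and 6.83 with H2O2 and 5.60 and 5.76 in dark, and Hop2 had 8.49 and 8.28 with H2O2. NdhL had 6.36 and 6.29 with H2O2 and NdhN had 5.78 and 6.16, below all their light values. BHLH101 had 8.57 and 9.00 in light, 4.62 and 4.58 with H2O2 and 5.79 and 6.03 in dark.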

How the data were processed

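Whole 7-day Col-0 seedlings were measured on 6 ATH1 arrays, 2 per group. Per the labels' protocols, total RNA was extracted with a Qiagen RNeasy kit and hybridised as biotin-labelled cRNA. The deposited values are log2 expression made with RMA, and RMA and limma are named in the submitters' processing notes, with no version. RMA models background, quantile-normalises and summarises the probes of a probe set, so levels are relative between arrays and low values are compressed.

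From these log2 values, 64 control probe sets were left out of 22810, and linear models were fitted over all 6 arrays and 3 contrasts with limma 3.58.1 under R 4.3.3 (moderated by eBayes, residual df 3, prior df 5.84), with Benjamini-Hochberg adjustment over 22746 probe sets. Adjusted p-values are from this fit unless another setting is named beside them. The median SE of a light minus dark difference was 0.15. Data were simulated for 22746 probe sets and light against dark, with 50 probe sets changed at each size. In them 8% of changes of 0.5, 96% of changes of 1 and 100% of changes of 2 or 3 on the log2 scale were called. Of unchanged probe sets 0.053% were called. Far fewer probe sets changed there than were called in the real data, so these rates do not carry over to it. Per-array depth does not apply to arrays, and their number, 2 per group, limits the precision.

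The platform annotation gave 1 gene for 13513 probe sets, several for 503 and none for 8730, and 13436 of the probe sets with 1 gene matched the RefSeq TAIR10.1 table, where symbols were updated. This left 13356 genes, each read from its probe set with the highest mean over all arrays. Probe sets with several genes were not named. Mitochondria-encoded names come from the platform annotation alone.

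The members and lists were chosen with earlier results of these data known, and lists were rebuilt from the names the annotation holds. The mitochondria-encoded, PRA1, IQD, tetraspanin, NET and serine carboxypeptidase-like lists were added after values were seen. Genes named are all members of the light and clock lists, all members of lists of up to 8, the 4 largest called rises and falls of longer lists and the 20 largest of all, not all of them printed, while further genes, among them uncalled members and paralogs set side by side, were chosen after their values were seen. Same-numbered light and dark arrays did not deviate together across probe sets (r = 0.07), which cannot exclude that they were handled as pairs. The main fit used no pairing, and a fit with a replicate block was run as an alternative.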

Additional observations from a re-analysis of the deposited data

How the results depend on the processing

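The count of called probe sets lay between 8568 and 11641 under every alternative run other than centring on the hybridisation controls, where it was 5261 against 10920, with 619 called lower against 5679. That scaling left 33 members of the 47 lists called lower against 194, and 224 called higher against 235. Of 205 called genes named in the text it kept the call of 142, and 55 kept their sign but lost their call. The smallest differences among these 55 were those of LIP1 (-0.03), DI19 (-0.04), OTP81 (-0.05), AMY1 (-0.08), ACLA-3 (-0.11), ETFQO (-0.12) and bHLH104 (-0.12). That scaling turned the sign of 8, giving ATPC2 0.02, CSN5B 0.18, GTR2 0.01, HCT 0.09, ILR3 0.23, SLY1 0.04, SPR1 0.23 and YUC11 0.22. The controls' medians were 8.68 and 9.54 on the light arrays and 9.47 and 10.13 on the dark arrays, so they differed within each group too, and the cause was not tested. Leaving out 1 array at a time gave 9315 to 9904 called probe sets, 213 to 228 list members called higher and 169 to 176 called lower. Of the 205 named genes 193 to 198 kept their call. The calls of TIC and SEC were lost under each of these 4 fits. Those of ALC, ACS, APL4, AtLEA4-1, BIM1, CSA1, CSN5B, CUL4, EXPA18, HTB2, ILR3, SAPX, SPR1, XCT and YUC11 were lost under 1 or more of them. The calls gained were those of ndhF, petD, petN, psaC, APL3, D2HGDH, bHLH115, Cpn60beta3 and HON4. Those of ndhF, petD and petN took opposite signs, depending on the dark array left out. Without dark array 1 their differences were 1.99, 2.03 and 2.16, and without dark array 2 they were -2.58, -2.07 and -1.91. In a fit of the 4 light and dark arrays alone ALC, CSA1, HTB2, SEC and TIC lost their call. With arrays centred on their own medians these and ACS, BIM1 and XCT lost it. With the replicate block 10905 probe sets were called, and among the named genes TIC and SEC lost their call while APL3 (adjusted p = 0.00396), D2HGDH (0.0438) and LEA18 (0.00756) gained one. Taking a gene's dimmest probe set in place of its brightest changed no list count. This could hardly come out otherwise, since 13513 probe sets with 1 gene cover 13356 genes and most genes have a single probe set. Promoter motifs were not analysed here. With 2 arrays per group, a change of 0.5 was mostly missed in simulated data where few probe sets changed. In the real data, with 48.0% of probe sets called, some differences near 0.5 were called and others were not. The size of changes at dim levels is uncertain.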
